A study of Mus musculus with 2 samples.

Results

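Expression of 9 genes of the interleukin-1 system was examined in single cells from the omentum of mice, an apron of visceral fat with lymphoid aggregates called milky spots. The genes were taken by symbol, as 9 of the 19960 genes listed. They were the cytokines Il1b, Il1a and Il18, the receptor antagonist Il1rn, the decoy receptor Il1r2, the shared receptor chain Il1rap, the inflammasome genes Nlrp3 and Casp1, and the prostaglandin synthase Ptgs2. All 9 were found. Wild-type (WT) mice were compared with Postn-DTR mice, in which the diphtheria toxin receptor is expressed from Postn, so that diphtheria toxin (DT) acts on Postn-expressing stromal cells and on any other cell that uses the gene. DT was given to both groups, and omenta were collected 5 days later. Each group was 1 library of pooled mice, so there was no test, p-value or standard error, and genotype, pool, capture and library cannot be told apart.

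IL-1β and IL-1α, the products of Il1b and Il1a, signal through IL1R1 together with the accessory chain encoded by Il1rap. Pro-IL-1β and pro-IL-18 are inactive until caspase-1, the product of Casp1, cleaves them in an inflammasome such as the one built on NLRP3, whereas IL-1α does not need that step. Il1rn encodes the antagonist that occupies IL1R1, and Il1r2 encodes a receptor without a signaling domain that captures IL-1. Ptgs2 encodes cyclooxygenase-2, which starts prostaglandin synthesis and is induced by IL-1. Neutrophils and monocytes are known sources of IL-1β, and mRNA levels say nothing of cleavage or release.

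After filtering, 8654 WT and 5727 Postn-DTR cells were kept, with 80152180 and 81011324 UMIs (unique molecular identifiers, each 1 captured transcript) and a median of 5635 and 8472 UMIs per cell. Levels are given in UMIs of a gene per 10000 UMIs of a cell, averaged over the cells of a cluster or class. A UMI marks 1 end of a transcript, and levels are compared within a gene. Below, pairs of values give WT first. The cells were clustered without the 9 genes and the other listed genes of the pathway. Neutrophil-like cells formed cluster 8 (58 and 476 cells) and cluster 12 (181 and 266). Cluster 8, called mature here, had Retnlg at 332 and 450.2 and Ltf at 0.455 and 0.201. In cluster 12 Retnlg was at 192 and 210 and the secondary granule gene Ltf at 125 and 82.4. Of the other listed mature genes, Cxcr2 was higher in cluster 8 (7.58 and 10.6 against 3.04 and 2.42). Mmp8 (11.8 and 11.9 against 17.2 and 17.5) and Mmp9 (18.2 and 14.8 against 18.6 and 21.5) were higher in cluster 12. The secondary granule genes Camp, Ngp and Chil3 were lower in cluster 8. Ngp was 13.6 and 13.3 there against 381 and 266, and Chil3 0.223 and 3.8 against 31.5 and 32.1. Cluster 10 (178 and 287), led by the primary granule genes Elane (82.8 and 62.2) and Mpo (49 and 33.6), met the neutrophil and monocyte markers too evenly to be named. Monocyte-like cells were cluster 17 (121 and 142). Macrophage-like cells were cluster 15, led by Lyve1 and Folr2 (162 and 203), and cluster 21, led by Alox15 and Prg4 (18 and 142). DC-like cells were cluster 13, led by Cd209a and Fscn1 (370 and 53), and cluster 20, led by Xcr1 and Clec9a (152 and 15). T-like cells numbered 2626 and 402 and B-like cells 2682 and 941. Postn, the targeted gene, was detected in 10 of 42 stromal-like cells of WT and in 4 of 19 of Postn-DTR. T-like cells, which should lack Postn, gave 4 of 2626 for WT and 0 of 402 for Postn-DTR, and the 0 allows a share of cells with a Postn UMI of up to 0.746%, which does not limit the share of cells expressing it. The libraries had 65 barcode sequences in common.

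In the GRCm38 assembly with GENCODE genes, Il1b lies at chr2:129364570-129371139 and Il1a at chr2:129299610-129309972, both on the minus strand, and Il1rn at chr2:24336853-24351494 on the plus strand. Il1r2 lies at chr1:40074079-40125231, Ptgs2 at chr1:150100031-150108227, Il1rap at chr16:26581704-26730117, Il18 at chr9:50554827-50581840, Casp1 at chr9:5298517-5307265 and Nlrp3 at chr11:59541568-59566956, all on the plus strand. Sequence upstream of Il1b, Il1r2 and Ptgs2 is shown because these 3 genes differed from each other in mature neutrophil-like cells, where Il1b was at a similar level in both libraries, Il1r2 was higher in Postn-DTR and Ptgs2 was lower. The sequences are RefSeq promoters of GRCm38.p6, 5′ to 3′ on the strand of the gene, in lower case with matches to the searched motifs in capitals. The windows are chr2:129371140-129371389 on the minus strand for Il1b, chr1:40085843-40085984 on the plus strand for Il1r2 and chr1:150099781-150100030 on the plus strand for Ptgs2. The first and the last span the 250 bases before the RefSeq start site. The Il1r2 window keeps the first 142 of these bases, since the rest lies in an exon of another annotated transcript, and it lies within the span of the GENCODE gene.
Il1b: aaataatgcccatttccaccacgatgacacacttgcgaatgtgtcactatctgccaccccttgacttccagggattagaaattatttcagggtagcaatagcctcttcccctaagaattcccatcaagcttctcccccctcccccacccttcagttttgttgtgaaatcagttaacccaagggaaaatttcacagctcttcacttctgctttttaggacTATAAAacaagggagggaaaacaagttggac
Il1r2: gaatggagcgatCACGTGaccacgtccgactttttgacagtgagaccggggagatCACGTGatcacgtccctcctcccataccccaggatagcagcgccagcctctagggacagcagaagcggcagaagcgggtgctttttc
Ptgs2: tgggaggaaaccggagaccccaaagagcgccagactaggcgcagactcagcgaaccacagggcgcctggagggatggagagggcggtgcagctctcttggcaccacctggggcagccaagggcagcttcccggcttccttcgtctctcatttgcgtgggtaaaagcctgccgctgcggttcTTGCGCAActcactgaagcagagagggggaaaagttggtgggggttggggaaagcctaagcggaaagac
The motifs, picked after the sequences had been read, were TATAAA, TTGCNNAA (C/EBP), TGANTCA (AP-1), CACGTG (E-box) and the longer consensus motifs of NF-kB and the glucocorticoid receptor, on both strands. The Il1b window held TATAAA at position -31 from the start site, the Il1r2 window held CACGTG at -238 and -195, and the Ptgs2 window held TTGCGCAA at -69. Of 32851 RefSeq promoters of the same length, 12.4% held TATAAA, 9.56% TTGCNNAA, 6.75% TGANTCA, 6.02% CACGTG, 1.41% the NF-kB motif and 0.387% the glucocorticoid receptor motif. The matches are a description of these letters and were not tested against expression.

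Il1b was highest in the mature neutrophil-like cluster 8, at a similar level in both libraries. It was 69.6 in WT and 72.9 in Postn-DTR (log2 ratio 0.066). The median cell held 55.5 and 54.6, with quartiles of 16.9 and 99.3 in WT and 21.7 and 108 in Postn-DTR, so that the ranges of the cells overlapped almost fully. On summed UMIs (1251 and 9014), which weight deep cells more, the log2 ratio was 0.43, with a 95% interval of 0.35 to 0.52. This interval and those below cover counting error only and not the difference between mice. DC-like cluster 13 came next at 20.6 and 23.8 (log2 ratio 0.20), followed by monocyte-like cells at 17.2 and 15.2 (-0.18). DC-like cluster 20 had 6.53 and 11.9, macrophage-like cluster 15 had 4.44 and 4.79, cluster 12 had 2.66 and 4.71, macrophage-like cluster 21 had 1.64 and 4.3 and cluster 10 had 1.43 and 0.744. The order of these 8 clusters was the same in both libraries, although clusters 15, 12 and 21 lay close together in Postn-DTR. In WT, 39 of the 47 UMIs of cluster 21 were in 1 cell. Il1b was 0.0253 and 0.0156 in T-like cells and 0.0527 and 0.132 in B-like cells.

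**Figure D1:**
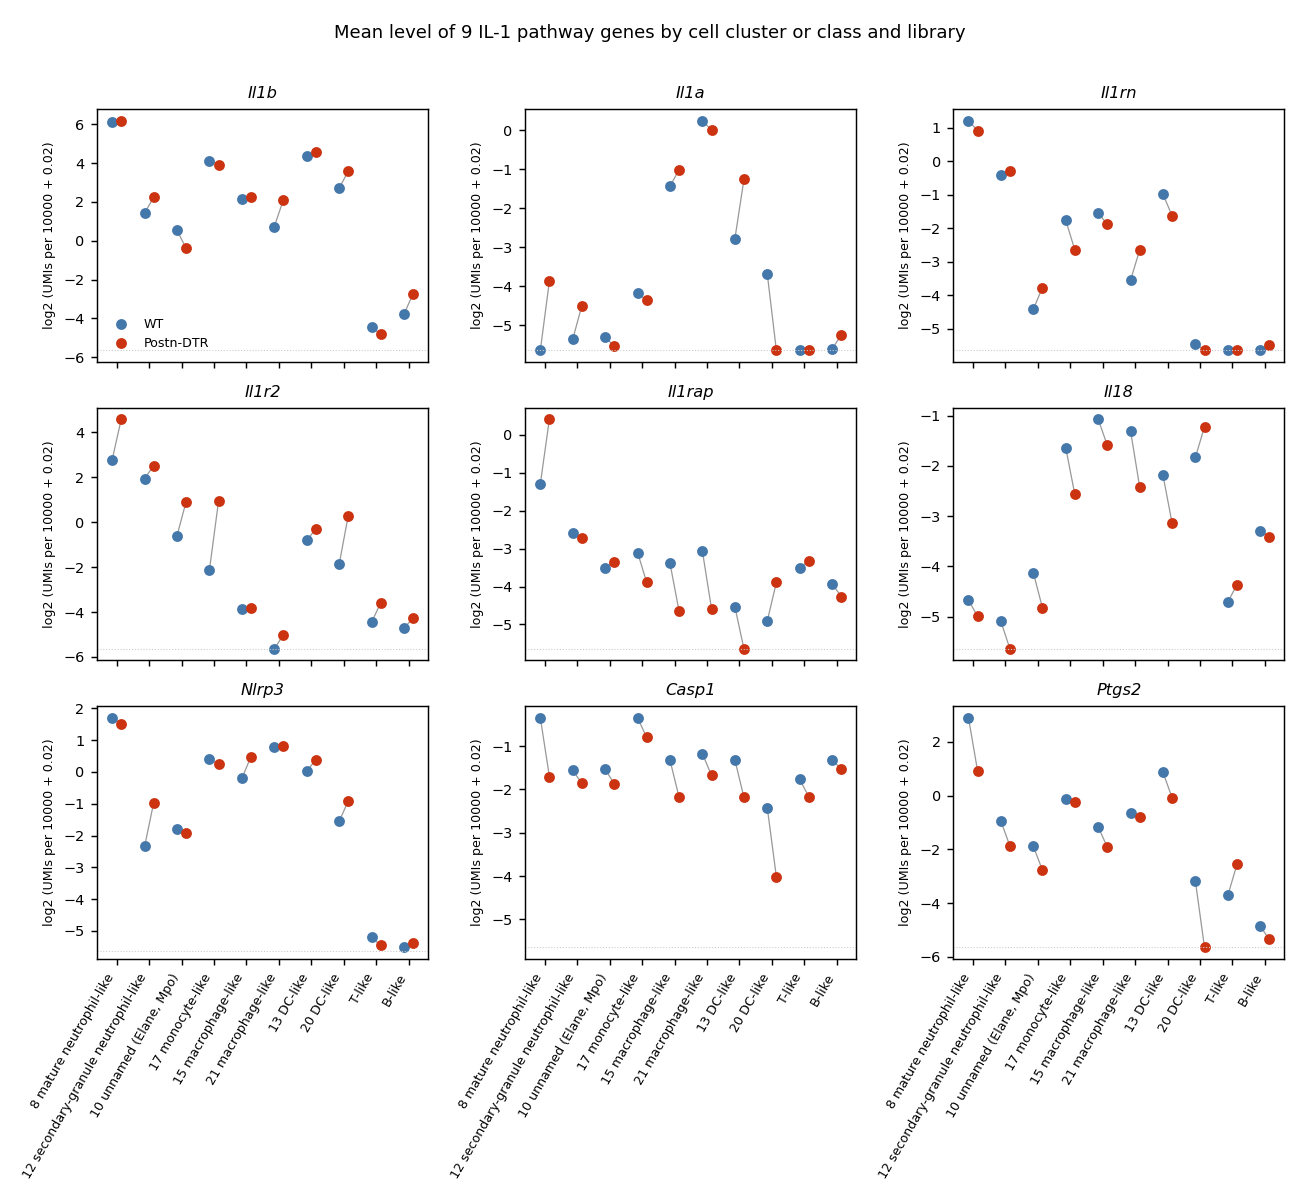
Mean level of each of the 9 genes (y axis, UMIs per 10000, log scale after adding 0.02) in the myeloid clusters and in T-like and B-like cells (x axis), WT and Postn-DTR, 1 library each and hence no error bars. In cluster 8 Il1b was 69.6 and 72.9, Il1r2 6.89 and 24.1 and Ptgs2 7.45 and 1.89.

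In all neutrophil-like cells together Il1b was 18.9 in WT and 48.4 in Postn-DTR (log2 ratio 1.36), although neither cluster reached that ratio. In WT, cluster 8 made up 24.3% of the neutrophil-like cells, and in Postn-DTR it made up 64.2%. With both clusters weighted equally, a choice made after the data were seen, Il1b was 36.1 and 38.8, a log2 ratio of 0.10. Neutrophils are therefore described below by cluster.

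The cells that held the Il1b transcripts differed between the libraries. Of 16174 Il1b UMIs in WT, 66.7% (66 to 67.4) were in DC-like cells, which were 6.03% of the cells, and 7.73% (7.33 to 8.16) were in cluster 8, which was 0.67% of the cells. Of 14618 in Postn-DTR, 9.03% (8.57 to 9.51) were in DC-like cells, now 1.19% of the cells, and 61.7% (60.9 to 62.5) were in cluster 8, now 8.31%. Clusters 8, 12 and 10 together held 14.3% in WT and 68.8% in Postn-DTR, and monocyte-like cells held 10.8% and 10.8%. Over all cells the mean level of Il1b was 1.97 and 7.34. Its UMIs, 16174 and 14618, were nevertheless fewer in Postn-DTR, beside library totals of 80152180 and 81011324. The direction over all cells thus depended on the weight of deep cells. Within cluster 8, cluster 13 and monocyte-like cells, the highest of the myeloid clusters, the log2 ratios lay between -0.18 and 0.20. They were -0.92 in cluster 10, 0.11 in cluster 15, 0.82 in cluster 12, 0.87 in cluster 20 and 1.38 in cluster 21. When the pathway genes were used for clustering, only an Xcr1-led cluster kept the DC-like name, and the DC-like share of Il1b UMIs was 13% and 1.85%. Shares of cells in 1 library also depend on dissociation and capture, whose part was not tested.

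**Figure D2:**
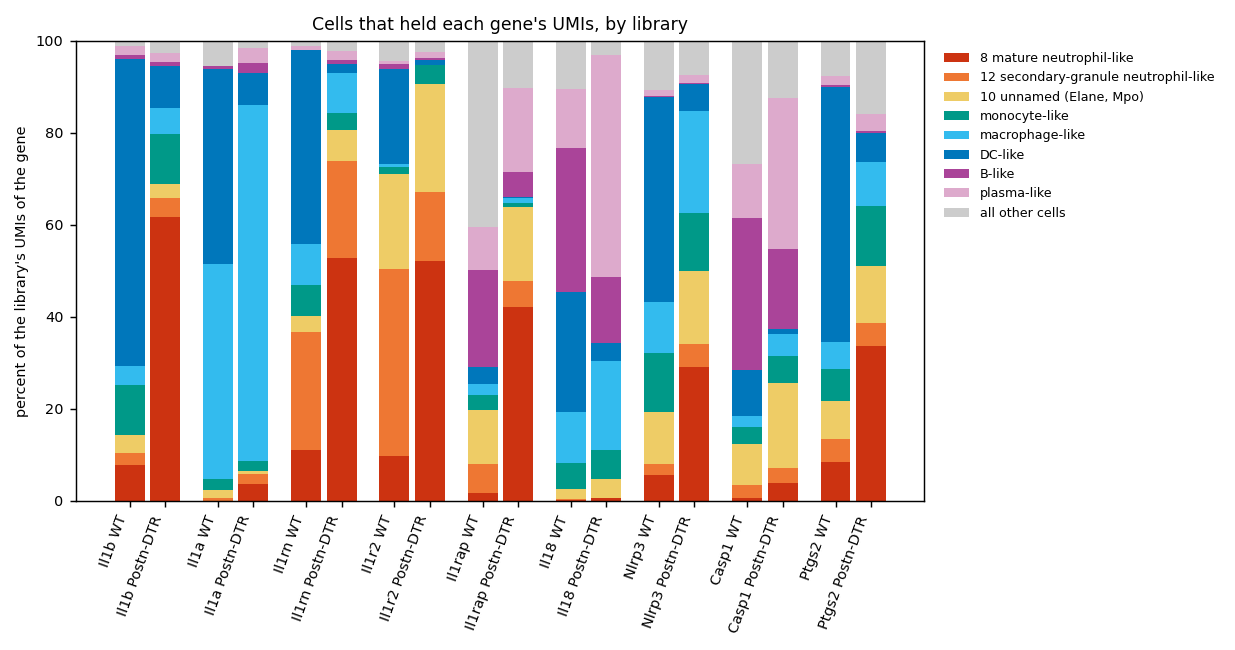
Share of each gene's UMIs in a library (y axis, percent) by the cluster or class that held them, WT and Postn-DTR side by side for the 9 genes. The DC-like share of Il1b was 66.7% in WT and 9.03% in Postn-DTR, and the share of cluster 8 was 7.73% and 61.7%.

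Il1a was highest in macrophage-like cells. Its level was 1.17 in WT and 0.985 in Postn-DTR in cluster 21, from 22 and 111 UMIs, and 0.351 and 0.479 in cluster 15, from 55 and 33 UMIs. The intervals of both summed log2 ratios, -0.96 to 0.44 and -0.50 to 0.82, included 0. DC-like cluster 13 had 0.125 and 0.399, from 53 and 13 UMIs, and monocyte-like cells had 0.0355 and 0.0287. Cluster 8, which had the most Il1b, had Il1a at 0 and 0.0486, from 0 and 7 UMIs. Cluster 12 had 0.0044 and 0.0242, from 1 and 4 UMIs, and the 4 were in 1 cell. Macrophage-like cells held 46.7% (38.9 to 54.6) of 165 Il1a UMIs in WT and 77.4% (70.7 to 83.2) of 186 in Postn-DTR, and DC-like cells held 42.4% (34.8 to 50.3) and 6.99% (3.77 to 11.7). These intervals leave out the clustering, since the macrophage-like share in WT was 21.8% with the pathway genes used for clustering and 64.2% at Louvain resolution 1.6.

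Il18 was spread over macrophage-like, DC-like, monocyte-like and B-lineage cells at low levels. It was 0.457 in WT and 0.313 in Postn-DTR in cluster 15, 0.384 and 0.167 in cluster 21, 0.301 and 0.149 in monocyte-like cells, 0.199 and 0.0937 in cluster 13, 0.261 and 0.409 in cluster 20 and 0.0824 and 0.0742 in B-like cells. Of these, monocyte-like cells were the only ones in which the interval of the summed log2 ratio left out 0 (-1.05, -1.89 to -0.24). In cluster 15 the mean level was lower in Postn-DTR but the summed log2 ratio was 0.35 (-0.21 to 0.91), so the direction depended on the weight of deep cells. B-like and plasma-like cells held 31.2% and 12.8% of 672 Il18 UMIs in WT, and 14.4% and 48.3% of 333 in Postn-DTR, where plasma-like cells were 38.4% of the cells.

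Il1r2, the decoy receptor, was higher in Postn-DTR in each of the 3 clusters with neutrophil genes. In cluster 8 it was 6.89 in WT and 24.1 in Postn-DTR (log2 ratio 1.81), and 1.80 on summed UMIs (168 and 3131, interval 1.58 to 2.04). The median cell held 5.85 and 16.9, and the upper quartile of WT, 9.03, lay below the median of Postn-DTR. The shares of cells with a UMI were 87.9% and 91.4%, where the median cell had 3266.5 and 2831 UMIs in all, and the difference lay in the amount per cell. After each cell was thinned to 1000 UMIs, leaving out 1 and 12 shallower cells, the level was 7.72 and 24.1 and the share 50.9% and 75.2%. Cluster 12 had 3.83 and 5.73 (log2 ratio 0.58, summed interval 0.55 to 0.84), and cluster 10 had 0.641 and 1.87 (1.51, 1.49 to 1.83). In cluster 10 the summed level of the 4 primary granule genes was 239 and 166. That of the 4 secondary granule genes was 437 and 574. The part of this difference in stage genes in the Il1r2 ratio was not tested. Relative to Il1b the balance also differed. Per 100 Il1b UMIs, cluster 8 held 13.4 in WT (11.4 to 15.8) and 34.7 in Postn-DTR (33.3 to 36.2) Il1r2 UMIs, whereas cluster 12 held 159 in WT (141 to 179) and 148 in Postn-DTR (133 to 164). Cells of cluster 8 that held both transcripts were 79.3% and 85.9%. Fkbp5 and Tsc22d3, known glucocorticoid-induced genes that were picked after the data were seen, were 0.213 and 1.24 and 1.32 and 3.77 in cluster 8, 0.225 and 0.511 and 0.643 and 1.62 in cluster 12, and 0.305 and 0.601 and 0.407 and 0.705 in cluster 10. In monocyte-like cells Fkbp5 was 0.0734 and 1.32 and Tsc22d3 1.41 and 1.56, with log2 ratios of 3.84 and 0.15. Their part in the Il1r2 result was not tested.

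Monocyte-like cells had the widest Il1r2 ratio of the 8 myeloid clusters, from a low level. It was 0.21 in WT and 1.89 in Postn-DTR (log2 ratio 3.06), from 27 and 244 UMIs and with a summed interval of 2.37 to 3.58. A UMI was found in 14% and 47.9% of the cells at median depths of 8963 and 8344.5, and in 0.559% and 1.38% of B-like cells at 5619.5 and 5011. T-like cells had one in 0.80% and 2.24%, and 46 of their 57 WT UMIs were in cluster 3, led by Tnfrsf4 and by Foxp3, a gene of regulatory T cells, which are known to express Il1r2. Of their 25 Postn-DTR UMIs, cluster 3 held only 5. Cluster 24, led by Cenpf and Kif11, held 20, of which 12 were in 1 cell. The level in cluster 3 was 0.0674 and 0.0713. Thinned to 1000 UMIs, the monocyte-like shares were 2.48% and 12%. Genes of the neutrophil marker list differed along with it. The summed level of the 10 neutrophil markers in monocyte-like cells was 1.32 and 54.4, and 1 and 5 of the 10 reached a level of 1. S100a8 was 0.0612 and 23.7 and S100a9 was 0.125 and 24.2, and these made up most of the sum in Postn-DTR. Chil3, a secondary granule gene outside that marker list, was 5.63 and 61.7 in monocyte-like cells. In Postn-DTR it was 3.8 in cluster 8, 32.1 in cluster 12 and 71.6 in cluster 10. Whether such transcripts came from the monocyte-like cells themselves or from neutrophils was not tested. Whether the monocyte-like cluster held like cells in both libraries was not tested either. In the 113 and 119 monocyte-like cells with no UMI of Retnlg, Ngp, Ltf, Camp, Mmp9, Ly6g or Cxcr2, Il1r2 was 0.213 and 1.91, as large a difference as in all of them. S100a8 was still 0.0655 and 11.1 there. Il1b in those cells was 17.6 and 16.

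**Figure D3:**
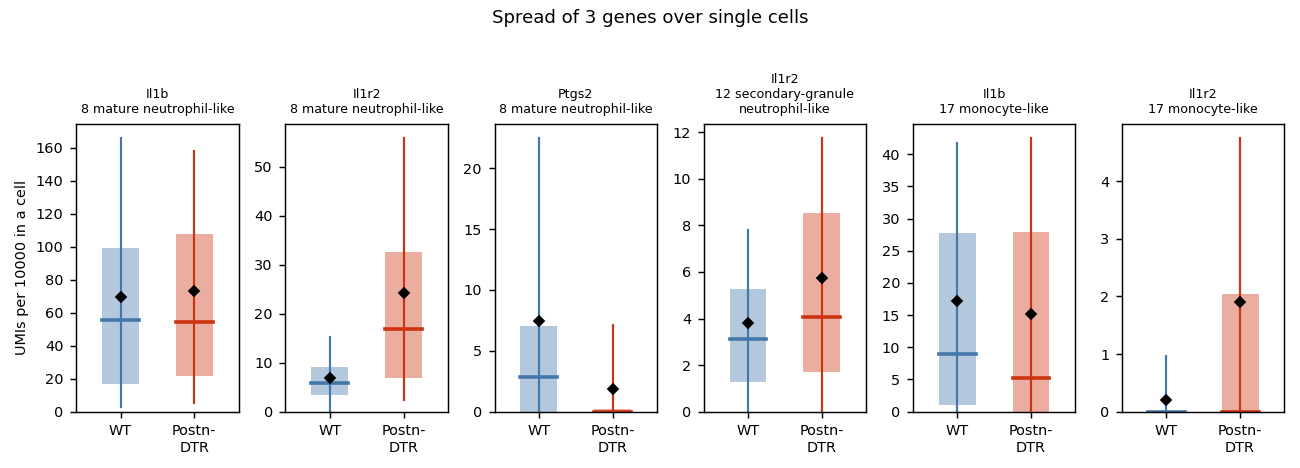
UMIs per 10000 of Il1b, Il1r2 and Ptgs2 in the single cells of cluster 8, of Il1r2 in cluster 12, and of Il1b and Il1r2 in monocyte-like cells (y axis), WT and Postn-DTR, with boxes for the quartiles and the median and diamonds for the mean. In cluster 8 the medians were 55.5 and 54.6 for Il1b, 5.85 and 16.9 for Il1r2, and 2.83 and 0 for Ptgs2.

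Il1r2 was also found in DC-like cells, which held 20.6% (18.8 to 22.6) of its UMIs in WT and 1.0% (0.765 to 1.29) in Postn-DTR. Their level as a class was 0.465 and 0.883 (summed interval 0.43 to 1.25). DC-like cluster 13 had 0.553 and 0.792 (summed interval -0.12 to 0.86), and cluster 20 had 0.252 and 1.2, where 10 of 19 Postn-DTR UMIs were in 1 of 15 cells. Macrophage-like cluster 15 had 0.0485 and 0.0503, and T-like cells had 0.0253 and 0.0632. Clusters 8, 12 and 10 held 71% (68.8 to 73.1) of 1739 Il1r2 UMIs in WT and 90.7% (89.9 to 91.4) of 5993 in Postn-DTR, and the level over all cells was 0.187 and 2.45.

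Il1rn, the receptor antagonist, had smaller ratios than Il1r2 in the 3 clusters with neutrophil genes. In cluster 8 it was 2.29 in WT and 1.86 in Postn-DTR, with a summed log2 ratio of -0.15 (-0.60 to 0.32), and in cluster 12 it was 0.734 and 0.794 (-0.34 to 0.47). In cluster 10 it was 0.0267 and 0.0532 (log2 ratio 0.65), from 16 and 31 UMIs, and the summed interval of -0.27 to 1.61 included 0. DC-like cluster 13 had 0.484 and 0.304 and monocyte-like cells 0.275 and 0.14, with intervals below 0 of -2.37 to -0.27 and -2.04 to -0.20 from 190 and 9 and 31 and 17 UMIs. Per 100 Il1b UMIs, cluster 8 held 4.0 in WT (2.95 to 5.3) and 2.66 in Postn-DTR (2.33 to 3.03) Il1rn UMIs, and cluster 10 held 2.61 in WT (1.48 to 4.27) and 7.09 in Postn-DTR (4.76 to 10.2). Clusters 8, 12 and 10 held 40.2% (35.6 to 44.9) of 453 Il1rn UMIs in WT and 80.6% (76.7 to 84.2) of 454 in Postn-DTR, and DC-like cells 42.2% and 1.98%.

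Il1rap, the chain that IL-1 receptors share, was low in most cells and, among the 8 myeloid clusters, highest in cluster 8. It was 0.387 in WT and 1.31 in Postn-DTR there (log2 ratio 1.71), but the WT value rested on 7 UMIs and the summed interval was 0.97 to 3.39. Cluster 12 had 0.146 and 0.131 (-0.76 to 1.07) and cluster 10 0.0685 and 0.0785 (-0.50 to 0.67). Monocyte-like cells had 0.0964 and 0.0474 from 13 and 3 UMIs, T-like cells 0.0679 and 0.0803 and B-like cells 0.046 and 0.0319. Il1r1, which encodes the signaling receptor and was not among the 9, was 0.388 and 0.384 in stromal-like cells, 0.221 and 0.221 in T-like cells and 0 and 0.0202 in cluster 8.

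Nlrp3, the inflammasome sensor, was highest in cluster 8 among the 8 myeloid clusters. It was 3.24 in WT and 2.84 in Postn-DTR in cluster 8 (summed log2 ratio 0.064, -0.32 to 0.47) and 1.29 and 1.17 in monocyte-like cells (-0.17, -0.50 to 0.17). Macrophage-like cluster 21 had 1.69 and 1.74, DC-like cluster 13 0.992 and 1.29 and cluster 10 0.267 and 0.243. The mean level was higher in Postn-DTR in macrophage-like cluster 15, at 0.847 and 1.37 (0.43 to 1.29), and in cluster 12, at 0.178 and 0.49 from 30 and 62 UMIs (0.75 to 2.08). The shares of cells with a UMI were not higher. They were 30.2% and 26.6% in cluster 15, at median depths of 5722.5 and 2314. In cluster 12 they were 11% and 10.5%, at 9801 and 5451.5, and 9 of the 62 Postn-DTR UMIs were in 1 cell. T-like cells had 0.00716 and 0.00286. Outside the 8 myeloid clusters, the 25 and 13 mast or basophil-like cells had the highest level of any class, 3.48 and 5.92 from 77 and 37 UMIs (summed interval -0.13 to 1.06). Of these UMIs, 36 and 18 were in 1 cell each. ILC2-like cells, in which no Il1b UMI was found, had 0.0536 and 0.37.

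Casp1, the protease of the inflammasome, was spread over myeloid cells and lymphocytes. It was 0.767 in WT and 0.287 in Postn-DTR in cluster 8, 0.765 and 0.554 in monocyte-like cells, 0.381 and 0.20 in cluster 13, 0.378 and 0.20 in cluster 15, 0.378 and 0.328 in B-like cells and 0.273 and 0.202 in T-like cells. The mean was lower in Postn-DTR in all 8 myeloid clusters and in T-like and B-like cells, with log2 ratios from -1.59 in cluster 20, where Postn-DTR held 1 UMI, to -0.19 in B-like cells. Of these 10 the summed interval left out 0 in monocyte-like cells alone (-1.01 to -0.038), and it was -1.66 to 0.22 in cluster 8. Plasma-like cells had 0.122 and 0.0728 (-1.23 to -0.77). NK-like cells went the other way at 0.368 and 0.503 (-0.24 to 1.02). Pycard, the adaptor between NLRP3 and caspase-1, was 2.18 and 4.62 in monocyte-like cells.

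Ptgs2 was lower in Postn-DTR in all 8 myeloid clusters. In cluster 8, the highest of these, it was 7.45 in WT and 1.89 in Postn-DTR (log2 ratio -1.97), and -1.66 on summed UMIs (128 and 217, -1.98 to -1.33). The median cell held 2.83 and 0. A UMI was found in 62.1% and 25% of the cells, and after thinning to 1000 UMIs in 35.1% and 12.7%, against 0.306% and 1% of T-like cells. Cluster 12 had 0.499 and 0.252, cluster 10 0.252 and 0.127, DC-like cluster 13 1.8 and 0.926, macrophage-like clusters 15 and 21 0.428 and 0.246 and 0.623 and 0.551, and monocyte-like cells 0.894 and 0.818. The interval on summed UMIs lay below 0 in these 7 clusters, including cluster 13 (-1.64 to -0.68) and monocyte-like cells (-0.97 to -0.11), where the mean differed little. For the macrophage-like cells as 1 class the direction depended on the processing, since the log2 ratio of -0.26 became 0.92 after thinning and 1.15 with the pathway genes used for clustering. Cluster 20 held 30 and 0 UMIs, and 17 of those in WT were in 1 cell. Per 100 Il1b UMIs, cluster 8 held 10.2 in WT (8.46 to 12.3) and 2.41 in Postn-DTR (2.09 to 2.75) Ptgs2 UMIs, and 60.3% and 23.3% of its cells held both transcripts. Over all cells the mean level was 0.193 and 0.258. Ptgs2 UMIs nevertheless numbered 1498 and 646, beside library totals of 80152180 and 81011324. The direction over all cells thus depended on the weight of deep cells. DC-like cells held 55.4% and 6.19% of the Ptgs2 UMIs, and clusters 8, 12 and 10 held 21.8% and 51.1%. With the pathway genes used for clustering, the DC-like share in WT was 2.0%, and in Postn-DTR it was 0. The antisense gene Il1bos overlaps Il1b and its shown window, Gm14023 overlaps Il1a, and Ptgs2os overlaps the window of Ptgs2. The strand setting of the counting is not given in the sources used here, so reads of such a pair were taken as assigned in the deposited values.

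**Figure D4:**
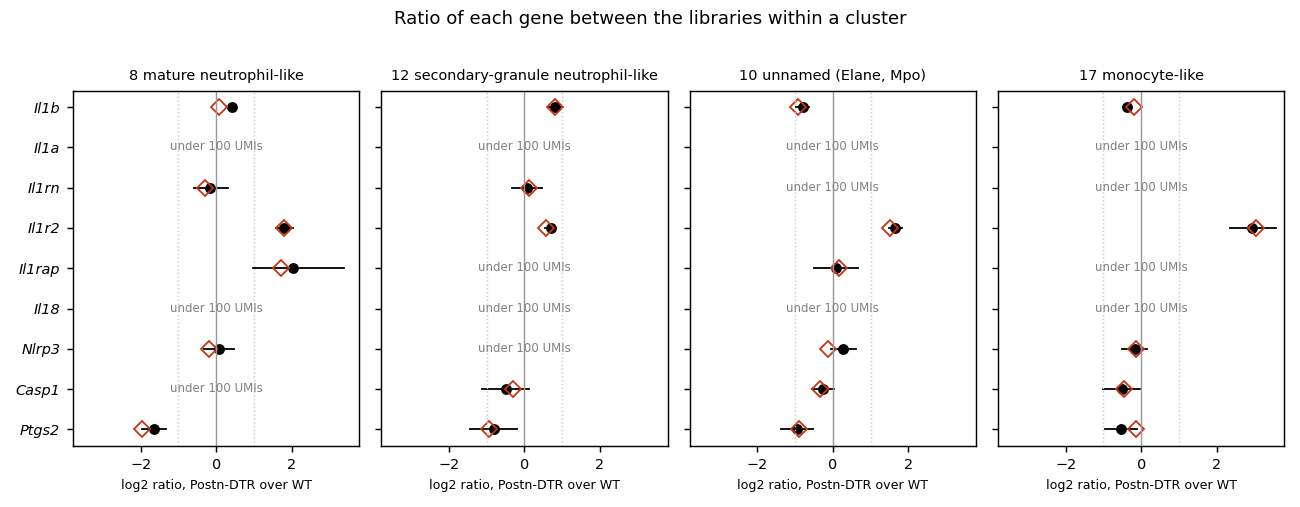
Log2 ratio of Postn-DTR over WT (x axis) for the 9 genes (y axis) in clusters 8, 12 and 10 and in monocyte-like cells, with summed UMIs and their 95% counting intervals as points and bars, mean levels as diamonds, and dotted lines at 2-fold. In cluster 8 the ratios of mean levels were 1.81 for Il1r2, 0.066 for Il1b and -1.97 for Ptgs2.

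The number of genes past 2-fold was set beside that of all genes that reached 100 UMIs in the same cells, both libraries summed. In neutrophil-like cells 7 of the 9 had that many UMIs, of which 4 were higher in Postn-DTR (Il1b, Il1r2, Il1rap and Nlrp3) and 0 lower, beside 5.34% higher and 2.22% lower of 4270 genes. With both clusters weighted equally, Il1r2 and Il1rap were higher, Ptgs2 was lower, and Il1b and Nlrp3 were not past 2-fold. Within cluster 8, 6 had enough, 2 were higher (Il1r2 and Il1rap) and 1 lower (Ptgs2), beside 5.86% higher and 2.75% lower of 1962 genes. Within cluster 12 0 and 0 of 5 were past 2-fold (1.83% higher and 1.28% lower of 3270 genes), and within cluster 10 1 of 6, Il1r2, was higher (0.775% higher and 1.75% lower of 8129 genes). In monocyte-like cells 1 of 5, again Il1r2, was higher (2.91% higher and 5.47% lower of 3398 genes). In macrophage-like cells 0 of 6 (4.23% higher and 4.41% lower of 3809 genes) and in DC-like cells 0 of 7 (2.1% higher and 7.97% lower of 7200 genes) were past 2-fold. In T-like cells 1 of 3, Ptgs2, was higher (1.48% higher and 1.27% lower of 9040 genes), and in B-like cells 1 of 4, Il1b (0.928% higher and 1.14% lower of 9373 genes). The median log2 ratio of the members counted was 1.10 in neutrophil-like cells and -0.062 in cluster 8, beside 0.11 and 0.052 over all genes.

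The 2 calls in lymphocytes rested on few UMIs. Ptgs2 in T-like cells was 0.0564 in WT and 0.15 in Postn-DTR, from 91 and 34 UMIs. Cluster 5, which was led by the γδ T cell genes Scart1 and Trgv6 and by Il17a, held 83 and 25 of these, 45 and 11 of them in 1 cell each. Il1b in B-like cells was 0.0527 in WT and 0.132 in Postn-DTR, from 115 and 120 UMIs, of which 33 in Postn-DTR were in 1 cell. S100a8, a gene of the neutrophil marker list, was 0.072 and 0.419 in the same B-like cells. It was also higher in Postn-DTR in T-like (0.246 and 0.603) and plasma-like cells (0.0237 and 0.193). There Il1b was lower, at 0.0253 and 0.0156 and at 0.143 and 0.0576. In NK-like cells S100a8 was 0.0887 and 0.51 and Il1b 0.0184 and 0.0202. The link of S100a8 to the B-like call was not tested. A UMI of Il1b was found in 0.685% and 0.746% of T-like cells and 1.98% and 3.93% of B-like cells at median depths of 4590.5 and 4095.5 and 5619.5 and 5011, and in 79.3% and 72.5% of monocyte-like cells. Whether the T-like and B-like shares came from those cells or from free RNA was not tested.

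Among the other 56 listed genes of the pathway, 22 had enough UMIs in monocyte-like cells. Of these, 1 was past 2-fold higher in Postn-DTR (Pycard) and 5 lower, with a median log2 ratio of -0.36 beside -0.062 over all genes, of which 2.91% were higher and 5.47% lower. The listed signaling genes gave 4 of the lower calls, from 11 with enough UMIs. The lower genes were the NF-kB inhibitors Tnfaip3 (0.927 and 0.119) and Nfkbia (5.1 and 1.86), the related regulator Nfkbiz (1.87 and 0.60), the ubiquitin ligase Peli1 (0.821 and 0.393), and Hpgd (2.03 and 0.505), which encodes an enzyme that degrades prostaglandins. In the monocyte-like cells without UMIs of the 7 neutrophil genes, Tnfaip3 was 0.832 and 0.125 and Nfkbia 5.04 and 1.91. In cluster 8 Tnfaip3 was 2.33 and 2.43, Nfkbia 12.4 and 13.4 and Nfkbiz 3.53 and 4.91. Il1b in monocyte-like cells, by comparison, had a log2 ratio of -0.18.

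In neutrophil-like cells 2 of 29 were past 2-fold (beside 5.34% higher over all genes), both higher, namely the NLR gene Nlrp12 (0.271 and 0.944) and Txnip (0.662 and 1.59), which encodes a thioredoxin-binding protein. Within cluster 8 0 of 17 were (5.86% and 2.75% over all genes, higher first). Within cluster 12 Ninj1, which encodes a protein of plasma membrane rupture, was higher (0.225 and 0.497) and the kinase gene Irak4 lower (0.553 and 0.258), of 22 (1.83% and 1.28%). Within cluster 10 Il18rap, the accessory chain of the IL-18 receptor, was higher (0.242 and 0.537), of 37 (beside 0.775%), and it was 0.967 and 1.63 in cluster 12 and 1.12 and 2.23 in cluster 8. In macrophage-like cells Hpgd alone of 26 was past 2-fold (0.923 and 0.33, lower, beside 4.41% over all genes). In DC-like cells 2 of 36 were higher, Ltc4s (0.153 and 0.728), which encodes leukotriene C4 synthase, and Ninj1 (0.268 and 0.633), and 5 were lower (Hpgd, Map3k7, Mefv, Traf6 and Naip2), each from at most 7 UMIs in Postn-DTR, beside 2.1% higher and 7.97% lower over all genes. In T-like cells 0 of 34 were past 2-fold (1.48% and 1.27%), and in B-like cells 1 of 37, the prostaglandin D synthase gene Hpgds, was lower (0.0612 and 0.0196, beside 1.14%).

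Across 55 points, each a cluster in 1 library with at least 20 cells, the genes whose levels were most like those of the 9 differed by member. These Pearson correlations describe clusters that share libraries and depth. Il1b was most like Tlr13 (0.93), 1600010M07Rik and Csf2ra, and of the 9 most like Nlrp3 (0.88). Il1r2 was most like Tarm1 (0.92), Gm14548 and Siglece, and of the 9 most like Il1rn (0.83). Il1rn was most like A530064D06Rik (0.93), Nlrp3 most like Cd300a (0.92) and Ptgs2 most like Sirpb1b (0.81). Il1a was most like Sult1a1 (0.92), the complement gene C1qb and Ltc4s, and its correlation with Il1r2 was 0.094. Il18 was most like Tmem106a (0.84), Casp1 most like Tor1aip1 (0.77) and Il1rap most like Nudt4 (0.75).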

How the data were processed

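Single-cell RNA-seq was run on pooled omental cells of DT-treated WT and Postn-DTR mice, 1 library each. The authors aligned reads with Cell Ranger (6.0.0 in the submitters' processing notes, an earlier version in the methods of the study) to mm10. The labels name a 10x 5′ kit and the methods of the study a 3′ kit, and the files did not settle which. Per the values, the deposited matrices hold the natural log of 1 plus UMIs per 10000 UMIs of a cell, to 3 decimals. Whole UMIs (within 0.1) were recovered for 99.96% of WT and 99.9% of Postn-DTR values. Of 8686 and 5736 barcodes, cells with 200 to 7500 genes and under 25% mitochondrial UMIs were kept.

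Cells were clustered with Seurat 5.3.0 and sctransform 0.4.2 in R 4.3.3, on 3000 variable features without antigen receptor segments and the 65 pathway genes present, 30 principal components and Louvain resolution 0.8. A cluster was named from fixed markers if at least 3 of them, and a share of 0.5 with a lead of 0.2, were 2-fold higher and in 10% of its cells. These thresholds were set after the clusters were seen, and names may differ from those of the study. Scrublet (scanpy 1.11.5, score over 0.25) marked 1.56% and 1.8% of cells, which were removed only in an alternative. The members and gene lists were chosen with earlier results of these data known.

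Log2 ratios had 0.02 UMIs per 10000 added and so understate changes of low genes. Intervals on summed UMIs are exact conditional binomial, and those of shares exact (Clopper-Pearson), at 95%. A limit for 0 allows 3 counts. All 9 genes were reported, as were other listed genes past 2-fold with at least 100 UMIs (up to 10 per class, by size), and for likeness the 3 genes with the highest correlation of log2(level + 0.1) among those reaching a level of 1. On simulated data, 99.5% of 200 genes changed 4-fold among 4214 were recovered in neutrophil-like cells. High recovery was built in, since the simulated 4-fold change lay well past the 2-fold limit. The simulation therefore does not check the calls above. It says nothing of changes near 2-fold or of the differing mix of neutrophil-like clusters in the libraries. The alternatives were other scalings, thinning, filters, cluster settings, folds and leaving out single cells.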

Additional observations from a re-analysis of the deposited data

Results flagged for a closer look

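Ptgs2 differed in opposite directions in 2 kinds of cells. Its log2 ratio of Postn-DTR over WT was 1.15 in T-like cells and -1.97 in the mature neutrophil-like cluster 8, and the difference between these was not tested. The T-like value rested on 91 and 34 UMIs, of which 45 in WT were in 1 cell.

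Signals were also seen in cells outside the classes compared. Nlrp3 in ILC2-like cells of Postn-DTR was 0.37 UMIs per 10000, against 0.0536 in WT (7 and 28 UMIs with WT first). In mast or basophil-like cells (25 and 13 cells, median depth 1460 and 1281) Il1b was 19 in Postn-DTR and 0.542 in WT, from 88 and 21 UMIs, 41 and 11 of them in 1 cell. Ptgs2 in the same cells was 2.87 in Postn-DTR and 0.38 in WT, from 21 and 10 UMIs, 13 and 7 of them in 1 cell.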

How the results depend on the processing

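No paired analysis was possible because each group had 1 library and no result came from a test. Of 99 alternative values of the class counts and Il1b shares, 78 stayed near the value in the report and 21 moved. The count in neutrophil-like cells stayed within 1.5 times in every alternative run, but its members changed with equal cluster weights (2 higher, Il1r2 and Il1rap, and 1 lower, Ptgs2), at 1.5-fold (Casp1 and Ptgs2 added, lower) and after centring (Nlrp3 lost), and Il1r2 was past 2-fold in 11 of 11 alternatives in monocyte-like and 13 of 14 in neutrophil-like cells. The macrophage-like count of 0 became 1 at Louvain resolution 1.6 (Il1rn, lower), 1 when pathway genes were used for clustering (Il1b, higher) and 4 at 1.5-fold. The DC-like count of 0 became 1 after centring on the median gene (Il1r2), 2 after thinning (Il18 and Casp1, lower), 2 at resolution 1.6 (Il1rn and Ptgs2, lower), 1 with a minimum of 30 UMIs (Il1a), 3 at 1.5-fold, 2 without the top cell of each gene (Il1rn and Casp1, lower) and 3 with equal cluster weights (Il1r2 higher, Casp1 and Ptgs2 lower), the last chosen after the data were seen. The T-like count of 1 became 0 after thinning, 0 with 0.1 added and 0 without the top cell. The B-like count of 1 became 0 with 0.1 added and 0 in cells without S100a8 or S100a9 UMIs, also chosen after the data were seen. The DC-like share of Il1b UMIs was 59.8% in WT and 7.98% in Postn-DTR at resolution 1.6, 13% and 1.85% when pathway genes were used for clustering, where only the Xcr1 cluster kept the name, and 8.14% in Postn-DTR without the top cell. The neutrophil-like share (clusters 8 and 12) in Postn-DTR, 65.8%, became 66.9% without called doublets. Among members past 2-fold, the log2 ratio changed sign in 4 of 96 alternative values, for Nlrp3 in neutrophil-like cells with equal cluster weights (-0.038) and within cluster 8 (-0.19), for Il1rap within cluster 12 (-0.13) and for Ptgs2 in T-like cells within cluster 7 (-0.14). Among the others it did so in 19 of 313. With pathway genes used for clustering the values were 1.15 for Ptgs2 in macrophage-like, 0.61 for Il18 in DC-like and 0.028 for Il1b in monocyte-like cells. After thinning they were 0.92 for Ptgs2 in macrophage-like and -0.66 for Nlrp3 in DC-like cells. Il1b in macrophage-like cells was -0.57 at resolution 1.6 and -0.031 on summed UMIs, and Il1rn in neutrophil-like cells was -0.30 within cluster 8. With equal cluster weights Il1rn in neutrophil-like cells was -0.19, Il1a in macrophage-like -0.055 and Il18 in DC-like 0.12. Within single clusters Casp1 in T-like cells was 0.79 and Il18 in B-like cells 0.088, and Il1rap in T-like cells kept its sign in 10 of 16, down to -2.08. Apart from the shifts that an alternative makes by its construction, the cause was not tested. Depth limits the genes with few UMIs, such as Il1a and Il1rap outside their highest clusters, and with 1 library per group no difference has a replicate check.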
